A study of Mus musculus with 4 samples.

Results

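In the frontal cortex of E3 and CT offspring, 4811 CHG cytosines were listed as differing in methylation, and they are described here together with their levels in the hippocampus. They are all the rows of the deposited frontal cortex list for the CHG context, out of 28440 listed frontal cortex sites in all contexts. E3 is estriol, the estrogen of the human feto-placental unit. Pregnant CD-1 mice, an outbred wild type strain, carried an osmotic pump with 50 µl of 0.46 mg/ml E3 in DMSO, or with DMSO alone (CT), for 7 days from Day 9 of gestation. The tissue was taken from their female offspring, labelled as 8 weeks old, and 1 library was made for each tissue and treatment, 4 in all. With 1 library in each group, there was no replicate check, and animal and treatment cannot be told apart.

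A CHG site is a cytosine followed by A, C or T and then by G, so the reference genome holds it as CAG, CTG or CCG. Most methylation in mammals is found at CpG, where both strands carry it and Dnmt1 copies it at each cell division. Neurons also gain methylation outside CpG as the brain matures. It is written mainly by Dnmt3a and is found on CA dinucleotides more than on CT or CC. No enzyme is known to copy it between strands in mammals, and the level at any given cytosine is usually low.

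The hippocampus libraries, in which every CHG site with enough reads was kept, showed that low level directly. Over 4834090 CHG sites with at least 5 reads in both libraries, the mean level was 2.22% in E3 and 2.30% in CT. By sequence it was 2.73% in E3 and 2.85% in CT at CAG, 1.82% and 1.85% at CTG, and 1.63% and 1.66% at CCG. A site was covered by a median of 29 reads in E3 and of 10 reads in CT. Depth is unknown for the frontal cortex, where the list gives levels only.

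Of the 4811 listed sites, 3827 were lower in E3 than in CT (79.5%) and 984 were higher. The mean level was 8.58% in E3 and 24.1% in CT. At most sites 1 of the 2 levels was 0, since 3189 sites stood at 0% in E3 and 792 at 0% in CT, which together is 82.7% of the list, and none was at 50% or more in both libraries. At the sites lower in E3 the CT level had a median of 25%, and at the sites higher in E3 the E3 level had a median of 31.3%. The list was made from this contrast, so these counts describe it and carry no test. The smallest listed difference was 12.6 points, 4.05% in E3 against 16.7% in CT on chromosome 3, and no smaller one was given. At the other end, 45 sites differed by 100 points, 27 of them fully methylated in E3 and 18 in CT.

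**Figure D1:**
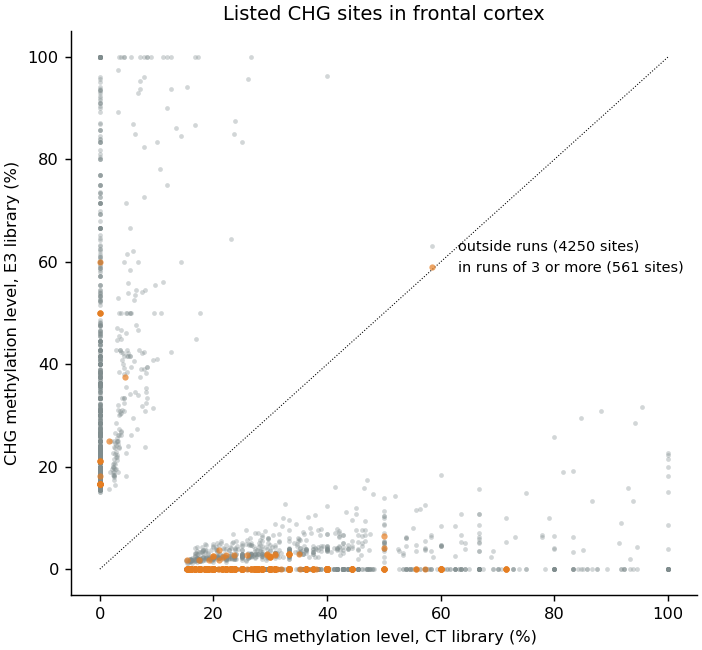
Methylation level (%) of each of the 4811 listed CHG sites in the frontal cortex, CT library on the x axis and E3 library on the y axis; the dotted line marks equal levels and orange points are sites in runs of 3 or more no more than 100 bases apart. The sites lie along both axes, with 3189 at 0% in E3 and 792 at 0% in CT, and the 561 sites in runs lie mostly along the x axis.

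The share of lower sites fell as the difference grew. Sites lower in E3 made up 85.1% of those with a difference of 10 to 20 points, 82.5% at 20 to 30, 78.0% at 30 to 50, 71.4% at 50 to 75 and 42.6% of the 169 sites at 75 to 100 points. The other contexts of the same list gave 63.7% lower among 9731 CpG sites and 75.3% among 13898 CHH sites. In the hippocampus, 92.6% of all CHG calls were lower in E3, and there the 2 libraries differed in depth. Among hippocampus sites where the E3 and CT read numbers were within 25% of each other, 75.5% of calls were lower in E3, and where E3 had more than 2 times the reads of CT, 96.9% were. Relative depth thus moved with the direction of calls in the hippocampus. Its part in the frontal cortex direction was not tested.

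The listed sites were mostly CAG. Of the 4811, 75.4% were CAG, 18.1% CTG and 6.57% CCG, whereas the hippocampus sites measured were 46.5% CAG, 45.0% CTG and 8.48% CCG. The share of CAG was 85.6% among sites higher in E3 and 72.7% among sites lower in E3. Outside the runs described below, the 5-base contexts most raised over their hippocampus share, leaving out those with CCGG, were ACAGT at 3.004 times, ACAGC at 2.72 times and CCAGC at 2.38 times. These 3 contexts also lay above the average of all CHG in the hippocampus, at 3.27%, 3.30% and 3.31% in E3. CAG, CTG and CCG each differ by 1 base from CGG, in which the same cytosine is a CpG. The files give no read sequence, and whether the animals carried another base at listed sites was not tested.

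A separate group of sites lay at the cut site of MspI, 1 of the 2 enzymes that made the fragments. The first cytosine of CCGG accounted for 182 listed sites (3.78%), at a mean of 8.43% in E3 and 22.0% in CT. Among hippocampus CHG sites, 0.125% were such cytosines, and 4 of the 182 had 5 reads in both hippocampus libraries. Outside runs, CCCGG was the 5-base context most raised over its hippocampus share, at 54.8 times. How far these values reflect the fragment ends was not tested.

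In the annotation columns of the list, 291 sites lay in promoters, 417 in exons, 2052 in introns and 131 in CpG islands, and 2283 had no promoter, exon or intron. The share lower in E3 was 84.9% in promoters, 80.6% in exons, 80% in introns, 77.9% in islands and 78.3% outside genes. The sequence mix of these parts differed: CAG made up 48.8% of promoter sites and 38.9% of island sites, while CCG made up 24.1% and 38.2%. The mix over all measured CHG sites of promoters and islands was not counted, so these shares cannot be read as particular to listed sites. Chromosome X held 90 sites, 4.60 for each 10000 CHG sites measured in the hippocampus, and the autosomes held 8.99 to 11.8. Repeats, as soft-masked in the reference, held 19.5% of the listed sites and 27.1% of the hippocampus sites.

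Some listed sites came in dense runs. A run was taken as 3 or more listed CHG sites with gaps of no more than 100 bases, and there were 90 of them with 561 sites. All sites were lower in E3 in 85 runs, all were higher in 3 and 2 were mixed. In 86 of 90 runs all sites were on the same strand. CHH sites were listed on the same strand in 80 of the runs, 938 in number, and in runs with lower sites only the CHG and CHH means in CT differed by a median of 0.526 points. Over all runs, 1466 of 2174 cytosines outside CpG on the run's strand were listed (67.4%), against 6 of 165 CpG cytosines. CTG made up 45.5% and CAG 43.5% of the sites in runs, close to their shares in the hippocampus table and unlike the sites outside runs, of which 79.6% were CAG.

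The sequences of 3 of the largest runs are shown because they let the listed cytosines be seen against the others of their strand, CpG cytosines included. Each is given 5′ to 3′ on the strand of its listed sites, from the first to the last listed CHG site, from the RefSeq GRCm38.p6 genome, which shares its coordinates with mm10. Capitals mark the cytosines listed as CHG or CHH.
Wnt5b intron, chr6:119435576-119435771, minus strand: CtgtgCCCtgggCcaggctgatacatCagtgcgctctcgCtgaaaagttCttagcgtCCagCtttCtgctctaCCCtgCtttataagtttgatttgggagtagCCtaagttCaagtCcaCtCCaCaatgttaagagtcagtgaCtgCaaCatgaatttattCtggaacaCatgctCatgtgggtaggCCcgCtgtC
Arhgef18 coding exon, chr8:3452125-3452268, plus strand: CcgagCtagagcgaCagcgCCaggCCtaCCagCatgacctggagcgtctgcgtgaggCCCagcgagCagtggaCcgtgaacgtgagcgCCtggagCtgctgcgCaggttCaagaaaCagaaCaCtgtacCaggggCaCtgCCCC
Mllt6 intron with Mir6927, chr11:97677014-97677167, minus strand: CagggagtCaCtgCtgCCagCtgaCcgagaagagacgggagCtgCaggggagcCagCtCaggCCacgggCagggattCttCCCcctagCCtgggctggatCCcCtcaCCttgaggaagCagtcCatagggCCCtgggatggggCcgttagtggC

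The largest run lay in an intron of Mllt6, which codes for a chromatin protein and is known as a fusion partner of MLL in leukemia, over the small RNA gene Mir6927. Its 16 sites were at 0% in E3 and at 20% to 25% in CT, and 34 of the 41 cytosines outside CpG on that strand were listed. In the hippocampus, 11 CHG sites of the run's strand were measured with 5 to 8 reads in CT, and the CT level was 0% at each of them.

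Arhgef18, a guanine nucleotide exchange factor, had 15 sites in a coding exon inside a CpG island. They were at 0% in E3 and 22.2% to 27.8% in CT. In the hippocampus, the 16 sites measured on this strand had a mean of 0.694% in E3, from 6 to 9 reads, and 21.5% in CT, from 8 to 10 reads. The hippocampus levels thus lay on the same side as in the frontal cortex, but none of the 16 passed Fisher's exact test at these read numbers. Because these sites are close together on the same strand, their levels may rest on the same few reads and are not independent.

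Wnt5b, a secreted Wnt ligand, had 12 of its 13 sites in 1 intronic run. All were at 0% in E3, and in CT they stood at 44.4% to 55.6%. In the hippocampus, 9 sites measured in the run averaged 0.741% in E3 from 30 reads each and 46.7% in CT from 5 reads each. Of the 9, 8 were called lower in E3. Since the sites are close together and have the same 5 CT reads in number, these calls may rest on the same few reads and are not independent. Of the 51 runs with 3 or more hippocampus sites, 7 averaged 10% or more in the CT hippocampus library and 1 did so in the E3 library.

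The run at Rmi1 and Hnrnpk went the other way. It lay in the shared promoter island of these genes, which code for a subunit of the BLM helicase complex and an RNA-binding protein of the nucleus, on chromosome 13 from 58403022 to 58403197. Its 12 CHG sites were at 16.7% to 25% in E3 and at 0% to 1.59% in CT, and all 31 listed CHH sites on its strand were also higher in E3. A single CHG site of the run was measured in the hippocampus, at 0% in both libraries, with 26 reads in E3 and 6 in CT.

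The other large runs in genes were all lower in E3. Cfap43, a cilia and flagella protein, had 14 intronic sites at 28.6% to 38.1% in CT and 0% in E3. Rbfox1, a neuronal splicing factor, had 12 at 20% to 27.3% in CT and at most 2.50% in E3, and Chst5, a sulfotransferase, had 12 at 40% in CT. Krt18, an epithelial keratin, had 11 in its promoter at 20% to 25% in CT. Kcnip1, which binds Kv4 potassium channels, had 10 at 36.4% in CT, and in the hippocampus the same stretch was near 0, at a mean of 1.33% in E3 and 0.833% in CT over 10 sites with at least 12 reads.

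**Figure D2:**
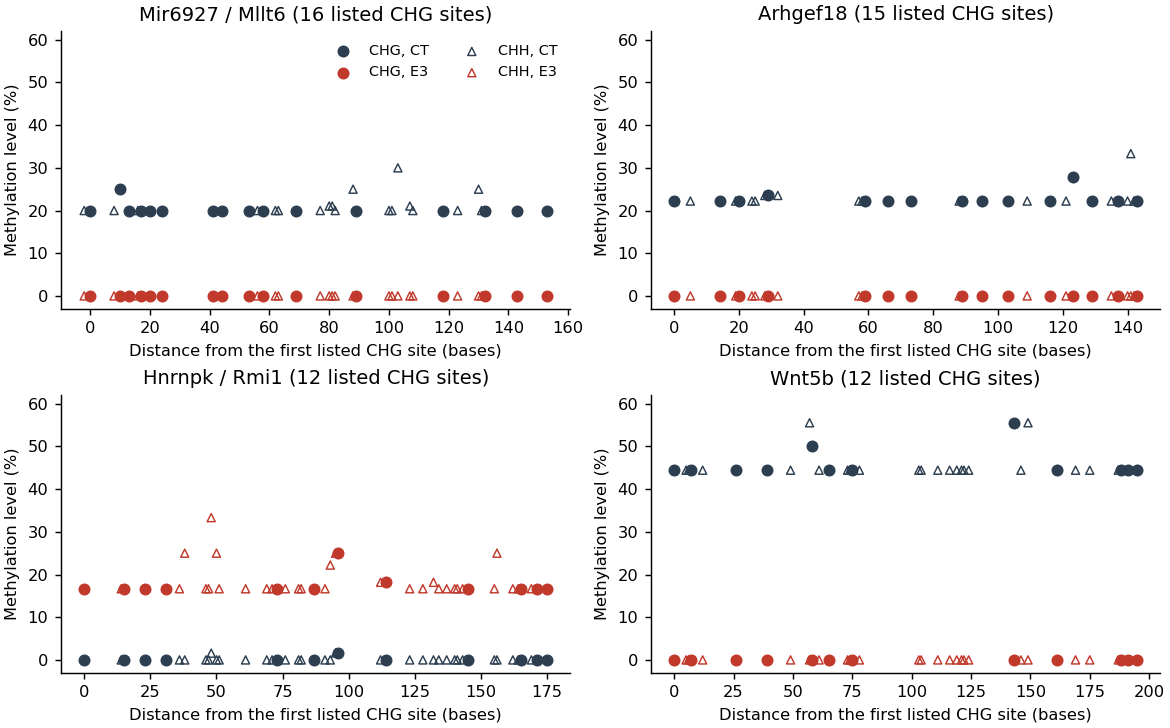
Methylation level (%) against distance in bases from the first listed CHG site for listed CHG sites (filled circles) and listed CHH sites (open triangles) on the strand of the run, E3 library in red and CT library in dark blue. Within a run both contexts sit at nearly the same level, 44.4% to 55.6% in CT at Wnt5b and 16.7% to 33.3% in E3 at Hnrnpk / Rmi1.

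Outside the runs, listed sites rarely had listed neighbours. A listed CHH site lay within 50 bases of 12.2% of them, against 96.8% of the sites in runs, and a listed CpG site within 50 bases of 1.81%. Of the 801 pairs with a CHH neighbour outside runs, 95.8% moved in the same direction and 89.0% were on the same strand, and of the 4690 pairs in runs 99.8% moved together. Of the 84 pairs with a CpG neighbour outside runs, 57.1% moved together, and of the 25 such pairs at CHG sites with a difference of 50 points or more, runs included, 28% did. The same CHG was listed on both strands in 1 case.

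Of the 4811 sites, 2845 had 5 or more reads in both hippocampus libraries. These libraries did not make the list, so their levels did not enter the choice of sites. Whether both tissues came from the same animals is not given in the sources used here. The prefix of the sample titles differs between the tissues, and what it stands for is not given. Whatever it stands for cannot be told apart from tissue. The mean level at listed sites was 7.97% in E3 and 8.35% in CT, more than 3 times that of all CHG sites, and 33.7% of listed sites reached 10% in at least 1 hippocampus library, against 12.9% of all. Sites higher in E3 in the frontal cortex stood at 14.7% and 15.1%, and sites lower in E3 at 6.13% and 6.48%. Both means were thus above those of all CHG sites in both hippocampus libraries, for either direction in the frontal cortex.

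The hippocampus level rose with the size of the frontal cortex difference. It was 3.90% in E3 and 4.34% in CT for listed differences of 10 to 20 points, 5.25% and 5.83% for 20 to 30, 9.29% and 10.1% for 30 to 50, 18.5% and 15.6% for 50 to 75, and 35.9% and 38.1% for the 97 sites with 75 points or more. Sites in runs were the exception, at 1.52% in E3 and 3.92% in CT. CpG sites within 100 bases of the listed sites averaged 74.4% in E3 and 75.8% in CT in the hippocampus, above the 64.4% around all CHG sites in either library.

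**Figure D3:**
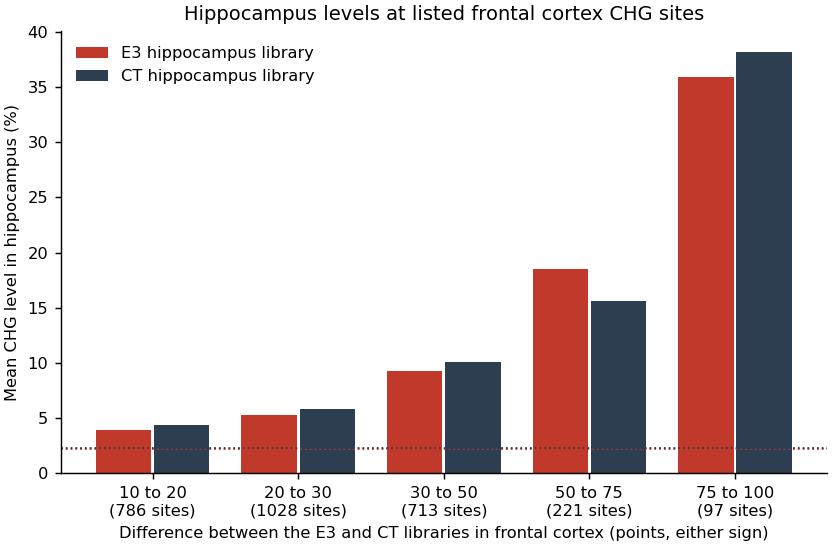
Mean CHG methylation level (%) in the E3 and CT hippocampus libraries at listed sites, grouped by their difference in the frontal cortex in points; dotted lines give the mean of all hippocampus CHG sites, 2.22% in E3 and 2.30% in CT. Both libraries rise from about 4% in the first group to 35.9% and 38.1% in the last.

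These sites were spread over the whole scale of levels. Among the 70 listed sites with a difference of 75 points or more and at least 20 E3 reads in the hippocampus, 31.4% were under 10% there (95% Wilson interval 21.8% to 43.0%), 25.7% lay from 40% to 60% (16.9% to 37.0%) and 12.9% were at 90% or more (6.91% to 22.7%). Of all hippocampus sites at this depth, 94.6% were under 10%, 0.0474% lay from 40% to 60% and 0.0282% were at 90% or more. The level also differed between strands. Where both strands of a CHG were measured at sites with a difference of 50 points or more (158 sites), pooled reads gave 24.4% in E3 and 20.8% in CT on the listed strand, and 2.06% and 4.34% on the other, against 2.22% and 2.30% over all CHG sites.

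The hippocampus libraries were compared at each site with a 2-sided Fisher's exact test, and a site was called where p was under 0.05 and the levels were 10 points or more apart. This compares libraries, and intervals and tests on reads cover counting error only. Over all CHG sites, 3.42% were called, 0.254% higher in E3 and 3.17% lower. Of the 2845 listed sites, 331 were called (11.6%), 94 higher and 237 lower. A call needs 10% or more in at least 1 library, and among the sites that had it, 26.6% of all hippocampus sites and 34.5% of listed sites were called. With 20 reads or more in both libraries, 64 of 367 listed sites were called (17.4%), against 5.68% of all sites at that depth (1.03% higher and 4.65% lower in E3). At 10 reads or more, 226 of 1551 listed sites were called against 4.32% of all sites. A limit of 25 points called 289 of the 2845 against 2.56%, and Benjamini-Hochberg adjusted Fisher's exact p called 111 against 0.841%. In runs, 11 of 296 measured sites were called (3.72%), near the background.

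Of the 331 calls, 208 went the way of the frontal cortex and 123 the opposite way (62.8% the same, 95% Wilson interval 57.5% to 67.9%). Lower sites were the majority in both tissues, so each direction is given apart. Of the 220 calls at sites lower in E3 in the frontal cortex, 24.1% were higher in the hippocampus, and of the 111 at sites higher in E3, 36.9% were. Over all hippocampus calls 7.42% were higher. With 20 reads in both libraries, 41.9% of the 43 calls at sites lower in E3 in the frontal cortex were higher in the hippocampus. So were 52.4% of the 21 calls at sites higher in E3, against 18.2% of all hippocampus calls at that depth. With a frontal cortex difference of 50 points or more, 42 of 85 calls had the same direction (49.4%, 39.0% to 59.8%), and with 20 reads in both libraries 36 of 64 did (56.3%, 44.1% to 67.7%). These intervals count each site as independent, although all sites come from the same 2 libraries.

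**Figure D4:**
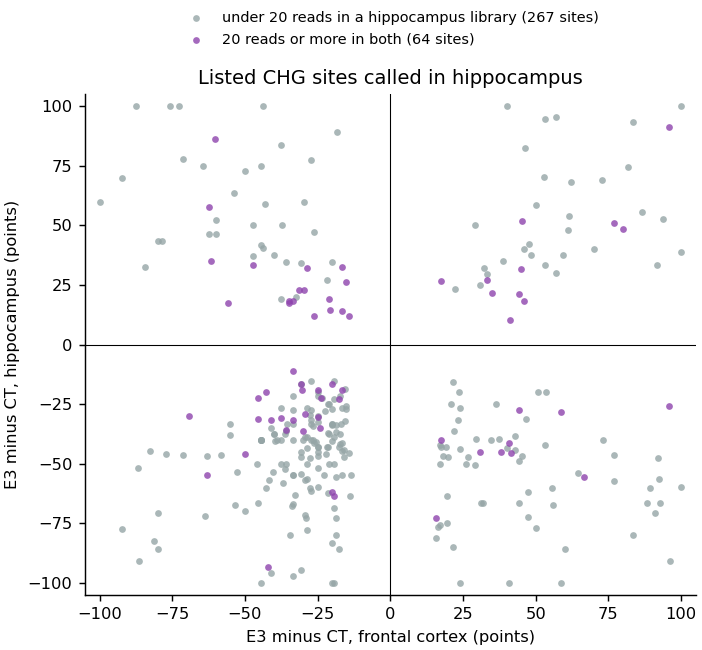
Difference E3 minus CT in points in the frontal cortex (x axis) and the hippocampus (y axis) for the 331 listed CHG sites called in the hippocampus; purple points had 20 reads or more in both hippocampus libraries. All 4 quadrants are filled, with 208 sites on the same side in both tissues and 123 on opposite sides.

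Several sites with the smallest hippocampus p differed the same way in both tissues, and the intervals given with their read counts are 95% Wilson intervals. Their sequence is shown because it gives the strand and context on which each level was read, as 41 bases 5′ to 3′ on the strand of the site from RefSeq GRCm38.p6, with the CHG in capitals.
Efcab5 intron, chr11:77131472-77131512, plus strand: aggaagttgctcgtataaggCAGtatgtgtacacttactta
Cadps intron, chr14:12542413-12542453, plus strand: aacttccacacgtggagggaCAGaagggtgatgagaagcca
Ffar3 coding exon, chr7:30855318-30855358, plus strand: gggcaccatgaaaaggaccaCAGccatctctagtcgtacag
Asic2 intron, chr11:81312939-81312979, minus strand: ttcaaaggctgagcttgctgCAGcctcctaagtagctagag

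The Efcab5 site was at 0% in E3 and 41.9% in CT in the frontal cortex. In the hippocampus it was at 0% in E3 (0 of 69 reads) and 93.5% in CT (29 of 31 reads, 79.3% to 98.2%), with an exact p of 3.7e-23; the 0 of 69 reads allow up to 5.27%. Cadps, which primes dense core vesicles for release, went the other way, at 100% in E3 and 4.17% in CT in the frontal cortex and at 91.3% (42 of 46 reads, 79.7% to 96.6%) and 0% (0 of 20 reads, up to 16.1%) in the hippocampus, with an exact p of 2.6e-13. The site in Ffar3, a receptor for short-chain fatty acids, lay 840 bases into the gene, in a coding exon that the list also counts as promoter. It was at 57.1% in E3 and 0% in CT in the frontal cortex and at 95.3% (41 of 43 reads, 84.5% to 98.7%) and 0% (0 of 14 reads, up to 21.5%) in the hippocampus, with an exact p of 1.6e-11. On the opposite strand of the Efcab5 and Cadps sites, the hippocampus level was 0% in both libraries, with at least 8 reads. At Ffar3 it was 11.6% in E3 (of 43 reads) and 0% in CT (of 6 reads).

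The sites in the ion channel genes Asic2 and Kcnmb2 were lower in E3 in both tissues. Asic2, an acid-sensing sodium channel, was at 0% in E3 and 19.2% in CT in the frontal cortex, and at 0% (0 of 62 reads) and 63.6% (14 of 22 reads) in the hippocampus. Kcnmb2, a subunit of the calcium-activated BK potassium channel, was at 0% and 20%, and then at 0% (0 of 68 reads) and 61.9% (13 of 21 reads). Tulp3 and Scml4 were also lower in E3 in both tissues, at 37.9% and 33.3% in CT in the frontal cortex. In the hippocampus their CT levels were 72.2% (13 of 18 reads) and 100% (10 of 10 reads, at least 72.2%). On the opposite strand, Asic2 was at 4.35% in E3 and 0% in CT, and Kcnmb2 at 0% in E3 and 34.8% in CT (of 23 reads). In these 4 genes the CT level on the listed strand was higher in the hippocampus than in the frontal cortex.

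Other sites were called in opposite directions, and 4 of them are shown for the same reason.
Kcnq5 intron, chr1:21599115-21599155, minus strand: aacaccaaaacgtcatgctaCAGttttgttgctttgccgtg
Atp8a2 intron, chr14:59988633-59988673, plus strand: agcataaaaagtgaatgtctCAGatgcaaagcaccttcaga
Trim58 coding exon, chr11:58651141-58651181, minus strand: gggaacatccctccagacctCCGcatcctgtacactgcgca
Tmem267 intron, chr13:119597836-119597876, plus strand: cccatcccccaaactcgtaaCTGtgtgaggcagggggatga

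Kcnq5 codes for a subunit of the M-type potassium channel. Its site was at 0% in E3 and 92.3% in CT in the frontal cortex, and at 98.4% in E3 (61 of 62 reads, 91.4% to 99.7%) and 28.6% in CT (4 of 14 reads, 11.7% to 54.6%) in the hippocampus. At Atp8a2, a phospholipid flippase, the frontal cortex gave 19.05% in E3 and 81.5% in CT, and the hippocampus 57.9% (22 of 38 reads, 42.2% to 72.1%) and 0% (0 of 64 reads, up to 5.66%). At Trim58 the frontal cortex gave 0% and 87.5%, and the hippocampus 100% (42 of 42 reads, at least 91.6%) and 0% (0 of 14 reads). The Tmem267 site, in a repeat, was higher in E3 in the frontal cortex, at 23.8% against 8.02%, and lower in the hippocampus, at 8.91% (40 of 449 reads) against 81.6% (40 of 49 reads). So at Kcnq5, Atp8a2 and Trim58 the library with the high level was CT in 1 tissue and E3 in the other.

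The sites with the largest differences were likewise not alike in the hippocampus. Sites tied at the largest rise were ordered by their smaller hippocampus read number, largest first, so measured sites came ahead of the others. Of the 10 rises in genes taken in this order, all at 100% in E3 and 0% in CT, 6 were measured there. That count depends on the order. Gsr, glutathione reductase, was at 25% in E3 (9 of 36 reads) and 84.6% in CT (11 of 13 reads). Fzr1, an activator of the anaphase-promoting complex, was at 56.5% (26 of 46 reads) and 20% (2 of 10 reads), which did not pass the test (exact p = 0.078). Specc1 was at 38.9% (7 of 18 reads) and 0% (0 of 16 reads) and was called higher in E3, while Naaladl2 was at 0% in both.
Of the 10 with the largest fall, 5 were measured and none was called. The 3 with a level of 10% or more there were Ccdc134 at 51.6% in E3 and 25% in CT, Prkcb, a protein kinase C, at 53.8% and 22.2%, and Pitpnm3 at 63.6% and 50.0%, all at 0% in E3 and 100% in CT in the frontal cortex. Cyp46a1, the cholesterol 24-hydroxylase of neurons, was also at 0% and 100% but was not measured in the hippocampus.

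Among the promoter sites with the largest difference, 7 of 10 were higher in E3. The sites at 4932702P03Rik and at Hnrnpa0, an RNA-binding protein, were at 100% in E3 and 0% in CT. Both were the first cytosine of CCGG, the cut site of MspI, and so was the site at Ribc2 and Smc1b given below. Nkx2-4, a homeobox factor, was at 85.7% and 0%, and Cstb, the protease inhibitor cystatin B, at 100% and 17.2%. The 3 lower sites were at Ribc2 and Smc1b (6.45% in E3, 80% in CT), Gdf2 (5.26% and 71.4%) and A230028O05Rik (0% and 63.6%). Of all 135 promoter sites measured in the hippocampus, 4 were called (2.96%), near the background of 3.42%, and the mean level was 4.99% in E3 and 2.89% in CT.

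By gene, the promoter, exon and intron columns named 1800 genes, of which 1389 had 1 site and 44 had 5 or more. Sites were all lower in E3 in 1352 genes, all higher in 326 and mixed in 122. Some genes had sites at many places more than 100 bases apart. Rora, an orphan nuclear receptor, had 8 sites at 8 places, 6 lower and 2 higher, with means of 14.7% in E3 and 28.7% in CT. Hspg2, the basement membrane proteoglycan perlecan, had 6 places, all lower in E3, at means of 1.45% and 46.4%. Of 32152 genes annotated in RefSeq with a CHG site measured in the hippocampus, 5.53% had a listed site. A gene that the list's own columns do not name counts here as having none. Arhgap24 is 1 such gene, with a run of 12 listed sites in an intron by RefSeq. The share over all genes may thus be too low to set beside lists of well-known genes. Gene length moved with this share: a gene had a median of 52 measured CHG sites, and the synaptic adhesion list had 562. The lists below are therefore also given per 10000 measured sites, for which all genes gave 7.85. In values over all genes, a measured site within overlapping genes counts for each gene, while a listed site is not counted again. This lowers them, so comparisons of the lists with all genes are rough. Without regard to genes, chromosome X held 4.60 listed sites per 10000 and the autosomes 8.99 to 11.8.

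**Figure D5:**
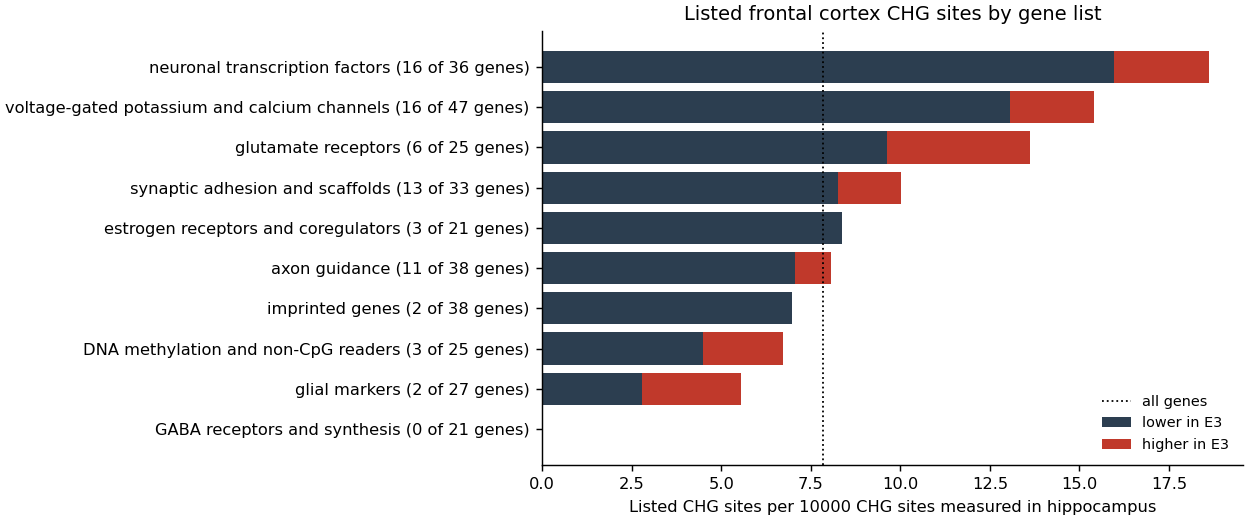
Listed frontal cortex CHG sites per 10000 CHG sites measured in the hippocampus, for 10 gene lists, split into sites lower (dark blue) and higher (red) in E3. The dotted line is the value over all genes, 7.85, in which a measured site within overlapping genes counts for each gene. Neuronal transcription factors stand at 18.6 and GABA receptors and synthesis at 0; 12 of the 49 sites of the first are 1 run in Rbfox1.

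Neuronal transcription factors, a list that also holds splicing and chromatin regulators of neurons, had the highest density. In it 16 of 36 genes had a site (44.4%), with 42 sites lower and 7 higher, at 18.6 per 10000, or 14.1 without sites in runs against 6.81 for all genes. Camta1, a calmodulin-binding transcription activator, had 9 sites at 9 separate places, 6 lower and 3 higher, 8 of them CAG. Its largest difference was 89.3% in E3 against 0% in CT, at a site with 0 of 17 reads in E3 and 3 of 5 reads in CT in the hippocampus, called lower in E3. Npas3, a bHLH-PAS factor, had 5 places, 4 lower and 1 higher. Auts2, a chromatin regulator of neuronal genes, had 4. At chr5:132089921 the frontal cortex stood at 58.8% in E3 and 0% in CT, while the hippocampus gave 2.13% (2 of 94 reads) and 30.4% (7 of 23 reads), called lower in E3.

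Of voltage-gated potassium and calcium channel genes, 16 of 47 had a site (34.04%), with 28 sites lower and 5 higher, at 15.4 per 10000. Runs in Kcnip1 and Cacna1c supplied 14 of the 33 sites, and without runs the density was 8.87. The Cacna1c run, in the gene of the Cav1.2 calcium channel, had 4 sites at 20% to 30.0% in CT and 0% to 2.50% in E3. Cacna2d3, an auxiliary calcium channel subunit, had 2 sites, both higher in E3, at 57.1% and 38.1% against 0% in CT. In the hippocampus the second was at 80.3% in E3 (106 of 132 reads) and 82.6% in CT (38 of 46 reads), and did not pass the test (exact p = 0.83).

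Glutamate receptor genes had 6 of 25 with a site (24%), with 12 sites lower and 5 higher, at 13.6 per 10000, or 7.22 without sites in runs against 6.81 for all genes. Grik4, a kainate receptor subunit, held 12 of the 17, 8 of them in 1 run, where 7 were at 16.7% in CT and 1, on the other strand, was at 16.7% in E3. Gria1, an AMPA receptor subunit, had 1 site at 0% in E3 and 16.7% in CT, and Grik2 and Grik3 had 1 each at 33.3% and 41.7% in CT. In contrast, none of the 21 genes of GABA receptors and synthesis had a listed site, over 4512 CHG sites measured in the hippocampus. These genes had a median of 124 measured sites, against 386 for the glutamate receptor genes, and no test was made.

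Synaptic adhesion and scaffold genes had 13 of 33 with a site (39.4%), 19 sites lower and 4 higher, at 10 per 10000. Cntn6, an adhesion molecule of the contactin family, had 2 sites on chromosome 6, at 104673270 and 104673422, both at 0% in E3 and 60.0% in CT. In the hippocampus both were called the opposite way, at 91.7% (44 of 48 reads) and 97.9% (47 of 48 reads) in E3 and 45.5% (5 of 11 reads) in CT at each. The sites are on the same strand with the same read numbers, so these calls may rest on the same fragments and may not be independent. Cntnap2, a contactin-associated adhesion protein, had a site at 0% and 93.3% that was not measured in the hippocampus.

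Axon guidance genes had 11 of 38 with a site (28.9%), 14 lower and 2 higher, at 8.07 per 10000. Slit3 and Slit2, ligands of Robo receptors, had 4 and 2 sites, all at 0% in E3. At the Slit2 site chr5:48047615 the CT level was 21.1% in the frontal cortex and 37.5% in the hippocampus (6 of 16 reads). Against 0% in E3 there (0 of 28 reads), Fisher's exact p was 0.0011 before adjustment. A smaller Fisher's exact p, 0.00053 at Gsr, was 0.059 after Benjamini-Hochberg adjustment. Efna5, an ephrin ligand, went the other way, at 38.5% in E3 and 4.76% in CT.

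Estrogen receptors and coregulators had 3 of 21 genes with a site (14.3%), and all 6 sites were lower in E3. Esrrg, an orphan receptor related to the estrogen receptors, had 3 sites at 16.0% to 25% in CT and 0% to 2.27% in E3. Cyp19a1, the aromatase that makes estradiol, had 2 at 0% in E3, with 27.3% and 18.8% in CT. Greb1, an estrogen-induced coactivator, had 1 at 0% and 27.3%, and it stood at 2.38% in E3 (1 of 42 reads) and 0% in CT (0 of 11 reads) in the hippocampus. The density was 8.38 per 10000, against 7.85 for all genes.

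In the list of DNA methylation and non-CpG readers, 3 of 25 genes had a site (12.0%), 1 each, and all were CAG. The density was 6.72 per 10000, against 7.85 for all genes. Mbd5, a methyl-CpG-binding domain protein, had its site at chr2:48986188. It was at 0% in E3 and 19.2% in CT, and was called lower in the hippocampus too. The hippocampus levels were 4.11% (3 of 73 reads) against 42.9% (6 of 14 reads), with a Fisher's exact p of 0.00038 before adjustment. Zbtb4, a zinc finger reader of methylated DNA, was at 0% and 37.5%, and Zbtb38, a related reader, at 22.2% and 0%. Imprinted genes had 2 of 38 with a site, all 4 sites lower in E3 at 6.99 per 10000, or 1.75 without runs: Commd1 with a short run of 3 at 17.6% in CT and Kcnq1 with 1. Of glial markers 2 of 27 had a site, 1 lower and 1 higher in E3, at 5.56 per 10000. The higher one was in Cspg4, a marker of oligodendrocyte precursors, at 25% in E3 and 3.03% in CT, and the lower one, on chromosome 18, is not described. Levels in bulk tissue cannot tell more cells of a type from more methylation in each cell.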

How the data were processed

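DNA of frontal cortex and hippocampus was cut with TaqαI and MspI, treated with bisulfite and sequenced (Methyl-MiniSeq), 1 library per tissue and treatment. The number of mice behind a library is not given in the sources used here. Reads were trimmed with TrimGalore, aligned with Bismark to mm10 and called with MethylDackel by the authors. The authors' deposited frontal cortex list gives the methylated fraction of both libraries at called sites, with p-values that were not used, and no depth or strand, and so no interval is given. The authors' deposited hippocampus table gives the methylated fraction and the total read count of each CHG site. The hippocampus CHH table was not used here.

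Strand and context were read from RefSeq GRCm38.p6, in which every listed position lay on a CHG cytosine. Methylated reads were rebuilt as fraction times total. Hippocampus sites with 5 or more reads in both libraries (median 29 in E3 and 10 in CT) were compared with a 2-sided Fisher's exact test (SciPy 1.17.1) over the whole table, the test of the study's methods, and called at p under 0.05 and 10 points. The test was checked on simulated reads. Intervals are 95% Wilson intervals. Genes came from the list's own columns; 1794 of 1800 symbols matched RefSeq, and 4 had been turned into dates.

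Genes and sites were named by rule: the 10 genes, runs and promoter sites with the most sites or largest difference (ties kept), the 10 largest rises and falls in genes, the 10 smallest hippocampus p in the same and in the opposite direction, and up to 4 genes per list; of each set a part is described, and genes on chromosomes Y and 18 were left out; 1 further gene is not reported here. The members and gene lists were chosen with earlier results of these data known.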

Additional observations from a re-analysis of the deposited data

Results flagged for a closer look

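The 10 listed sites with the smallest hippocampus p among those called opposite to the frontal cortex were picked out because the libraries moved up in 1 tissue and down in the other. The difference between the tissues was not tested, and each value rests on 1 library. The hippocampus difference, E3 minus CT, was 100 points at Trim58, Nfkbie and Map7, 69.8 at Kcnq5, 57.9 at Atp8a2 and 86.2 at an intergenic site on chromosome 15, where the frontal cortex differences were -87.5, -72.7, -75.8, -92.3, -62.4 and -60.4 points. It was -72.7 points at Tmem267 and -66.7, -85.7 and -85.1 at intergenic sites on chromosomes 9, 1 and 5, where the frontal cortex gave 15.8, 31.1, 60.0 and 21.4. The sites at Tmem267 and Map7 and those on chromosomes 9 and 5 lay in soft-masked repeats.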

How the results depend on the processing

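Of 40 values recomputed under other settings, 14 moved by more than the limit set for them (the main value's 95% interval for shares and levels, 1.5 times for counts) and are given here. The share of listed sites lower in E3, 79.5%, was 76.0% at 25 points or more, 63.3% at 50 or more, 77.4% with sites within 100 bases counted once, 76.9% without sites at 0% in 1 library and 77.3% without runs (added after seeing the data). The share called in the hippocampus, 11.6%, was 14.6% at 10 reads and 17.4% at 20 (4.32% and 5.68% of all sites), 10.2% at 25 points (2.56%) and 3.90% with Benjamini-Hochberg adjusted Fisher's exact p (0.841%). The share with the same direction, 62.8%, was 56.3% at 20 reads. The hippocampus mean was 7.04% in E3 and 7.05% in CT at 20 reads, and 8.72% and 8.86% without runs. Counts of the chosen gene lists moved by at most 1 gene with gene bodies alone, and the count over all genes went from 1777 to 1701. No paired analysis was possible because each tissue and treatment has 1 library. The unknown frontal cortex depth and the shallow CT hippocampus library, at a median of 10 reads, limit what single sites can show.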
